A study of Homo sapiens with 12 samples.

Results

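Several HES and HEY genes encode repressors through which NOTCH signalling is usually read out. The family was measured here in 2 head and neck squamous cell carcinoma (HNSCC) lines carrying an inducible shRNA against MUC1. The members were a list of symbols, drawn up with earlier results of these data known. They were HES1, HES2, HES4, HES6, HES7, HEY1, HEY2 and HEYL, with NRARP and RBPJ, which act beside them in the pathway. All 10 were found among the 39368 gene symbols of each count table. RNA-seq was performed on 12 libraries in 4 groups of 3: HPV-negative CAL27 and HSC3 cells carrying tet-MUC1shRNA, each treated for 7 days with vehicle (0.1% DMSO) or with 500 ng/ml doxycycline (DOX), which switches the shRNA on. The cells of all 12 libraries thus carried the integrated shRNA vector and had been selected in puromycin. By the labels the vehicle and DOX cells of a line differ in what was added to the medium. CAL27 cells were grown in DMEM and HSC3 cells in MEM, so line and medium cannot be told apart. No library of DOX-treated cells with the control shRNA was analysed here, so the loss of MUC1 and any other effect of DOX or of the induced shRNA cannot be told apart. The labels give RNA from cells cultured in triplicate, and p-values measure the spread between such cultures.

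NOTCH receptors are cleaved after they bind JAG or DLL ligands on a neighbouring cell, and the released intracellular domain enters the nucleus and binds RBPJ, the DNA-binding protein of the pathway. With a Mastermind coactivator this complex switches on several HES and HEY genes, whose basic helix-loop-helix proteins repress other genes. HES proteins often do so with Groucho (TLE) partners. Which members NOTCH switches on in these cells was not tested. NRARP is a direct target that feeds back to limit the complex. In squamous epithelium NOTCH signalling is known for driving keratinocytes out of the basal layer, and NOTCH receptor genes are recurrently mutated in HNSCC.

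Start sites in RefSeq (GRCh38.p14) were found for 9 of the 10 members. The 250 bases before each start were searched on both strands for TGGGAA, the core of the sites that RBPJ binds. The letters occurred before HES1, HES4, HEY2, HEYL and 1 of the 5 starts of RBPJ. That is 5 of the 13 windows of these members, or 38.5%, against 20.8% of 35116 such windows before all genes. The longer GTGGGAA, which contains the core, occurred in the same 5 windows and in 5.43% of all windows. They were not in the windows of HES2, HES6, HES7 or NRARP, which says only that these letters are not there. HES1, HES4, HEYL and NRARP are shown because they carry the range of patterns, with each match in capitals on the strand that is transcribed (TTCCCA is the core read from the other strand). The windows are chr3:194135898-194136147 (plus strand) for HES1, chr1:1000098-1000347 (minus strand) for HES4, chr1:39639644-39639893 (minus strand) for HEYL and chr9:137302272-137302521 (minus strand) for NRARP, each written 5′ to 3′ and ending at the base before the start.
HES1: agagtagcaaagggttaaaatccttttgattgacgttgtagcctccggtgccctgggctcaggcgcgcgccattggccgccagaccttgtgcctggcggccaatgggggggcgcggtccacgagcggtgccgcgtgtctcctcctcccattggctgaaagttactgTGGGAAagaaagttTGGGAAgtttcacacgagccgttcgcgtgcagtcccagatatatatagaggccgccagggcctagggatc
HES4: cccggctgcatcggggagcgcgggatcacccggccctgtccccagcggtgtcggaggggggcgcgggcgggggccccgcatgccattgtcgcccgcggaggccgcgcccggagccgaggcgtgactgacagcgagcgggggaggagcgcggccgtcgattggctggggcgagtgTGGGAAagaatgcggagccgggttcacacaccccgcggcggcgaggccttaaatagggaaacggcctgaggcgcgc
HEYL: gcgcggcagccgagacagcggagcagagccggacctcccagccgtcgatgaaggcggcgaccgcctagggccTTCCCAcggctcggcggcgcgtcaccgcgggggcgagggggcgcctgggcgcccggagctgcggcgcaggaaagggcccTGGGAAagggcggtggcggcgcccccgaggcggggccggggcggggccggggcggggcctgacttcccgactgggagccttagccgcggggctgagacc
NRARP: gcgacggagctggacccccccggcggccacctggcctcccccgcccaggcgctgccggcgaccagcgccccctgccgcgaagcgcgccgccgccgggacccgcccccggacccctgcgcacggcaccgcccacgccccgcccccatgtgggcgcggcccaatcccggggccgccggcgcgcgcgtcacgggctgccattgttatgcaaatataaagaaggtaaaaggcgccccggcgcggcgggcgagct
In HES1 the 2 matches begin at -84 and -70 from the start, and the match in HES4 begins at -76. In HEYL a match begins at -99 and another, on the other strand, at -178.

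HES1 lies at chr3:194136148-194138732, HES2 at chr1:6412418-6424670, HES4 at chr1:998962-1000172, HES6 at chr2:238238267-238240662 and HES7 at chr17:8120592-8124106 (GENCODE v44, GRCh38). HEY1 lies at chr8:79762371-79767857, HEY2 at chr6:125747664-125761269, HEYL at chr1:39623435-39639643, NRARP at chr9:137299631-137302271 and RBPJ at chr4:26163455-26435131.

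The deposited counts summed to 89730914 to 169065103 per library. The number of counts that 1 molecule gave was estimated at 2.45 to 3.33 in CAL27 libraries, 4.18 to 7.43 in HSC3 vehicle libraries and 8.93 to 17.2 in HSC3 DOX libraries, so low counts in HSC3 cells stand for few molecules. HSC3 DOX replicate 1 stood apart from the other 2 libraries of its group. Its counts differed from theirs with a chi-square per degree of freedom of 119 and 79.6, against 6.35 to 24.3 in every other pair of replicates, and results that it decides are given with and without it. MUC1, the gene targeted, fell in both lines. In CAL27 cells it went from 55.3 ± 2.79 to 2.98 ± 0.249 CPM, the counts scaled to a common library size (SD, n = 3, edgeR log2 fold change -4.21, SE 0.067, adjusted p = 1.6e-19). In HSC3 cells it went from 1.76 ± 0.186 to 0.236 ± 0.0928 CPM (-2.88, SE 0.38, adjusted p = 2.0e-04). The HSC3 DOX libraries held 2.67, 4.03 and 1.42 estimated molecules of MUC1, so the size of that fall rests on few molecules. On average MUC1 was lower in vehicle-treated HSC3 cells than in DOX-treated CAL27 cells, 2 groups that were not tested against each other. All 8 listed epithelial markers (KRT5, KRT14, KRT17, TP63, EPCAM, CDH1, DSG3 and PERP) were present in every group. Their summed level was 6626 to 6940 CPM with vehicle and 3354 to 3623 CPM with DOX in CAL27 cells, and 6398 to 7038 and 3382 to 3653 CPM in HSC3 cells. The sum followed the keratins: KRT5, KRT14, KRT17, TP63 and DSG3 fell in both lines, with 6 of the 8 markers lower in CAL27 cells and 5 in HSC3 cells. EPCAM rose instead, from 124 to 164 CPM and from 55.7 to 102 CPM on average, and CDH1 did not pass in either line (log2 0.03 and -0.02, adjusted p = 0.52 and 0.87). The part of these markers in the results below was not tested. Markers of smooth muscle, where HEYL and HEY2 are known, summed to 3.86 to 4.36 CPM in CAL27 cells with vehicle. With DOX the sum was 3.17 to 4.72 CPM. RGS5 gave most of these sums, at 3.16 and 3.25 CPM on average, and DES was at 0 in all 12 libraries. Endothelial markers summed to 14.9 to 15.3 and 8.83 to 12.2 CPM in CAL27 cells. Nearly all of this was CDH5, at 14.6 and 9.97 CPM on average, the only 1 of 4 reaching 1 CPM. In HSC3 cells the endothelial markers summed to at most 0.520 CPM. Leukocyte markers summed to at most 0.582 CPM in any library and fibroblast markers to 4.20 to 10.9 CPM. The fibroblast sum was mostly COL1A1, at 4.59 to 8.40 CPM on average by group. LUM stood at 2.09 CPM in CAL27 vehicle cells and at most 0.536 CPM on average elsewhere, and COL3A1 was at 0 in every group. In bulk RNA, fewer cells with a transcript and less of it per cell cannot be told apart.

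Before DOX, the lines held these genes at very different levels. NRARP, HES2 and HES4 stood higher in vehicle-treated CAL27 cells, and RBPJ in HSC3 cells. HEY2 and HEYL were low in CAL27 cells, at 1.91 and 2.06 CPM on average, and near or at 0 in HSC3 cells. Between the vehicle groups, 8 members were lower in HSC3 cells and 2 higher at an adjusted p under 0.05, against 32.3% of all genes tested lower and 30.6% higher, so the count of members is to be read against a background in which 62.9% of genes differed. The groups did not overlap for 9 of 10 members, against 74.3% of genes. HES6, HEY2 and HEYL are in both counts but passed the filter on low counts only through CAL27 cells. Their direction was fixed in advance, so they add no support to these counts. NRARP had 88.9, 78.9 and 90.5 CPM in the CAL27 vehicle libraries and 5.92, 6.01 and 6.05 CPM in those of HSC3, a 14.4-fold lower level (log2 -3.85, SE 0.097, adjusted p = 3.5e-14). HES2, a repressor with a less studied role than HES1, had 27.4, 26.5 and 30.2 CPM against 7.52, 6.49 and 6.57 CPM and was 4.08-fold lower (log2 -2.03, SE 0.12, adjusted p = 9.2e-10). Neither gene's libraries overlapped between the lines. HES4 was 5.74-fold lower in HSC3 cells (log2 -2.52, SE 0.31, adjusted p = 3.5e-06). HEY2 had 258, 215 and 226 counts in the CAL27 vehicle libraries and 20, 24 and 8 in those of HSC3. The latter stand for 2.99, 5.74 and 1.08 estimated molecules, so no fold or p-value is given. RBPJ went the other way, with 74.2, 72.7 and 73.8 CPM in CAL27 cells and 260, 237 and 256 CPM in HSC3 cells, 3.41-fold higher (log2 1.77, SE 0.074, adjusted p = 8.6e-12). A link between the level of RBPJ and those of NRARP and HES2 was not tested.

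HES1 differed little between the lines, at 30.7 ± 0.408 CPM in CAL27 and 24.1 ± 0.666 CPM in HSC3 cells (SD, n = 3; log2 -0.35, SE 0.073, adjusted p = 0.00059). With library totals in place of TMM, a scaling that moved the median of all genes by -0.27, its difference was -0.62. HEY1 was 1.43-fold higher in HSC3 cells (log2 0.51, SE 0.15, adjusted p = 0.0087), and this call was lost with library totals (0.24, adjusted p = 0.18). HES7, a gene of the somite clock, was low in both lines, at 0.282 ± 0.113 and 0.0978 ± 0.0618 CPM, with overlapping libraries (log2 -1.57, SE 0.53, adjusted p = 0.018). That call was lost without CAL27 vehicle replicate 1 (-1.31, adjusted p = 0.074) and without HSC3 vehicle replicate 1 (-1.16, adjusted p = 0.070). HEYL had 300, 230 and 229 counts in the CAL27 vehicle libraries and 0 in all 6 HSC3 libraries. HES6, better known from neural progenitors, had 62, 76 and 88 counts in CAL27 and 6, 2 and 0 in HSC3 vehicle libraries. Both passed the filter on low counts only through CAL27 cells. The direction of their test was thus fixed in advance, and no p-value is given. No fold is given for either, since 1 molecule was estimated to give 4.18 to 7.43 counts in these HSC3 libraries, and 3 counts correspond to 0.0251 to 0.0365 CPM there.

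Per kilobase of annotated exon, NRARP led in CAL27 vehicle cells at 32.6 CPM per kb, followed by HES1 at 14.9, HES4 at 6.58, HES2 at 5.18 and RBPJ at 4.81 CPM per kb. HEY2 at 0.709 and HEY1 at 0.685 CPM per kb overlapped, and HEYL at 0.506, HES6 at 0.320 and HES7 at 0.150 CPM per kb came last. In HSC3 vehicle cells RBPJ led at 16.4 CPM per kb, before HES1 at 11.7 and NRARP at 2.27 CPM per kb. HES2 at 1.27, HES4 at 1.15 and HEY1 at 0.979 CPM per kb overlapped neighbour by neighbour, as did the 4 lowest, HEY2, HES7, HES6 and HEYL, all at or under 0.0660 CPM per kb. These lengths count every annotated exon, such as 15311 bases for RBPJ, and a long annotation lowers a gene's value.

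**Figure D1:**
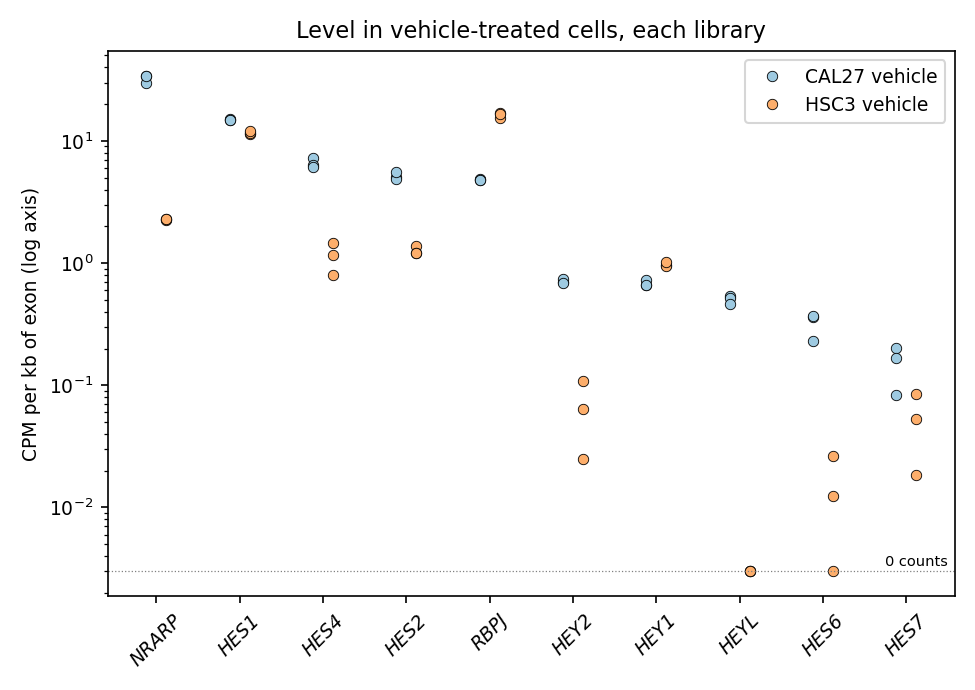
Level of each member in the vehicle-treated libraries of CAL27 and HSC3 cells, in CPM per kilobase of annotated exon on a log scale; each point is a library, 3 per line, and libraries with 0 counts are drawn on the dotted line. The NRARP points average 32.6 in CAL27 and 2.27 in HSC3 cells and those of RBPJ 4.81 and 16.4, and HEYL had no count in HSC3 cells.

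With DOX, most of the family fell in CAL27 cells. NRARP, HES1, HES2, HES4, HEY1, HEY2 and HEYL, 7 of 10 members, were lower at an adjusted p under 0.05, HES7 was higher, and HES6 and RBPJ did not pass. Of all genes tested in this line 44.5% passed, 21.8% lower and 22.6% higher. Past 2-fold, 4 members were lower, against 5.11% of genes. The median log2 fold change of the members was -0.69, beside -0.0052 over all genes tested. The groups did not overlap for 9 members, against 51.8% of genes.

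NRARP, the feedback target, had 88.9, 78.9 and 90.5 CPM with vehicle and 42.4, 35.8 and 32.7 CPM with DOX, a fall of 2.34-fold (log2 -1.22, SE 0.095, adjusted p = 2.2e-05). HES2 fell most among the members, from 27.4, 26.5 and 30.2 CPM to 8.93, 9.16 and 7.40 CPM, or 3.31-fold (log2 -1.73, SE 0.078, adjusted p = 3.3e-12). For both genes every DOX library lay far under every vehicle library. HES1, the best studied of the NOTCH-induced repressors, fell much less, from 31.0, 30.2 and 30.8 CPM to 27.3, 25.2 and 22.1 CPM (1.24-fold; log2 -0.31, SE 0.062, adjusted p = 0.00039). HES4, a relative of HES1 that mice lack, had 8.12, 7.09 and 6.85 CPM with vehicle and 4.93, 5.19 and 4.44 CPM with DOX (1.52-fold lower; log2 -0.60, SE 0.094, adjusted p = 2.2e-05). The DOX libraries of both were all under the vehicle libraries, by a narrower gap in HES1.

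The 3 HEY genes, whose proteins act in vessels and heart and can pair with HES proteins, fell together in CAL27 cells. HEY1 went from 3.61, 4.02 and 3.65 CPM to 2.35, 2.48 and 1.82 CPM (1.70-fold; log2 -0.77, SE 0.13, adjusted p = 5.7e-05). HEY2 went from 1.87, 1.98 and 1.86 CPM to 0.774, 0.902 and 0.761 CPM (2.35-fold; log2 -1.23, SE 0.17, adjusted p = 3.8e-06). HEYL went from 2.17, 2.12 and 1.89 CPM to 1.15, 1.05 and 0.885 CPM (2.02-fold; log2 -1.01, SE 0.16, adjusted p = 2.9e-05). None of the 3 had a DOX library within the range of the vehicle libraries. In 1 fit over all 12 libraries, which shares its estimate of spread with HSC3 cells, HEY2, HES4 and HES7 no longer passed (adjusted p = 0.10, 0.16 and 0.17), with log2 fold changes of -1.23, -0.60 and 0.99 that were nearly those of the line's own fit.

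HES7 was the only member that rose in CAL27 cells, from 52, 17 and 38 counts to 58, 48 and 86 counts, or 0.377, 0.157 and 0.313 CPM to 0.554, 0.466 and 0.668 CPM (1.97-fold; log2 0.98, SE 0.32, adjusted p = 0.018). Its lowest DOX library lay above its highest vehicle library. The call was lost without CAL27 vehicle replicate 2 (0.69, adjusted p = 0.096) and without the DOX library numbered 6 (0.83, adjusted p = 0.056). The vehicle libraries held 62, 76 and 88 counts of HES6 and the DOX libraries 82, 40 and 62, and its groups overlapped (log2 -0.19, 95% interval -0.78 to 0.41, adjusted p = 0.65). RBPJ, at 74.2, 72.7 and 73.8 CPM with vehicle and 77.8, 75.0 and 82.2 CPM with DOX, did not overlap between groups but did not pass (log2 0.09, 95% interval 0.00070 to 0.17, adjusted p = 0.097). The part of RBPJ in the changes of the other members was not tested.

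**Figure D2:**
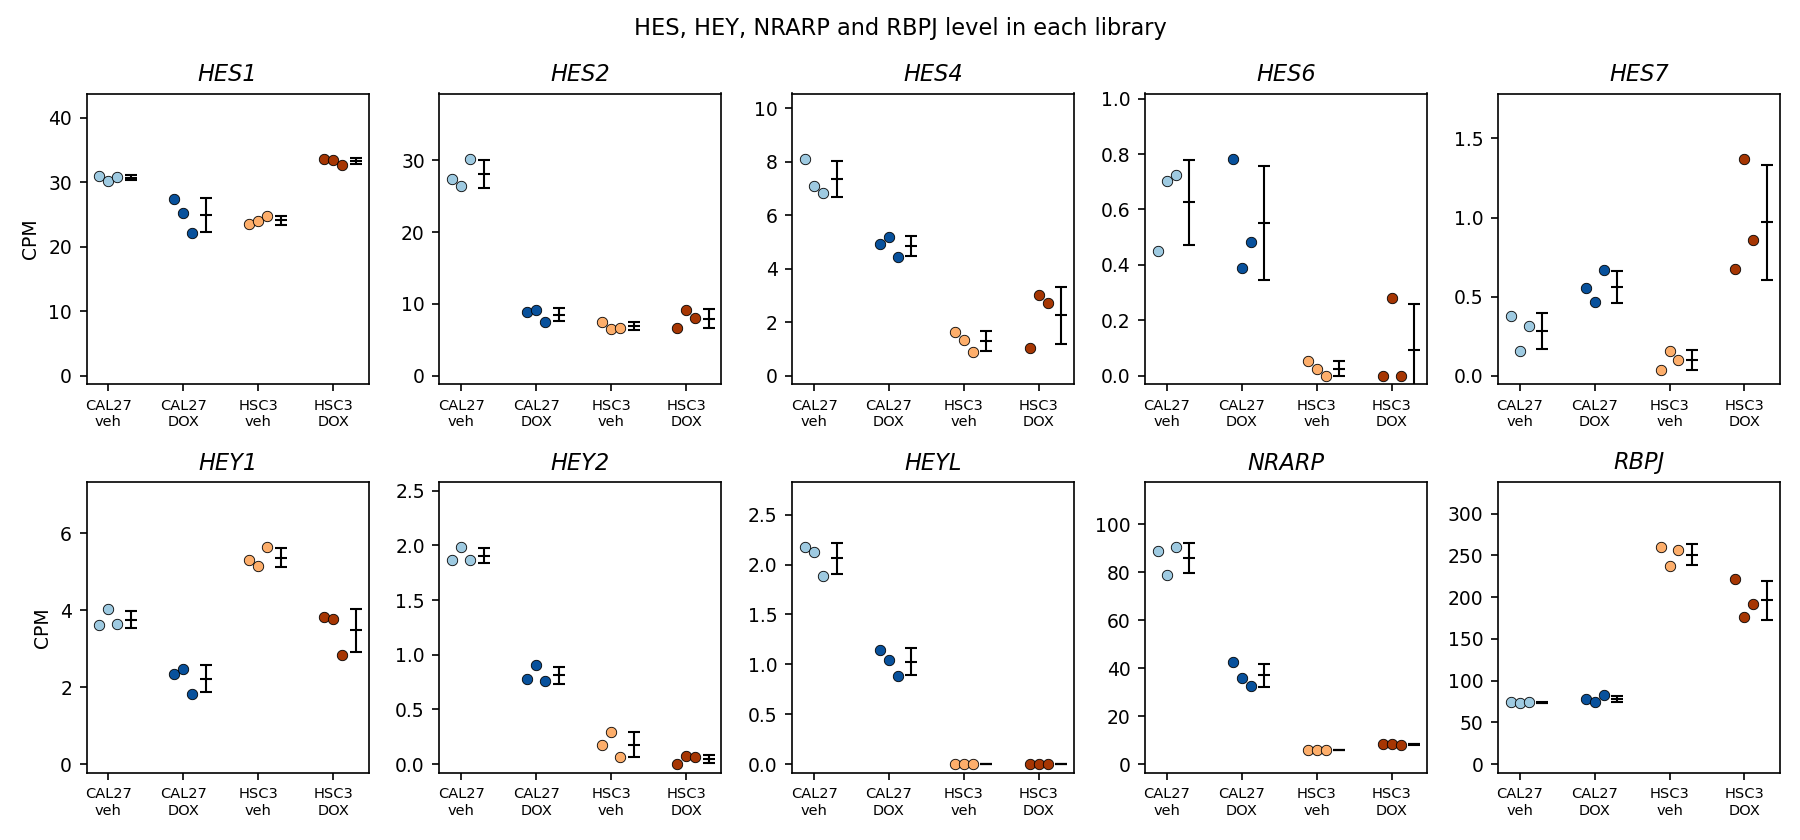
Level of each member in CPM in every library (points, 3 per group; the lines beside them are the group mean ± SD), by line and treatment (veh, vehicle), with a separate linear axis for each gene. In CAL27 cells the DOX points of NRARP (32.7 to 42.4) and HES2 (7.40 to 9.16) lie under their vehicle points (78.9 to 90.5 and 26.5 to 30.2), whereas in HSC3 cells the DOX points of HES1 (32.7 to 33.7) and NRARP (7.99 to 8.51) lie above theirs.

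HSC3 cells gave another pattern. HES1, NRARP and HES7 rose with DOX, HEY1 and RBPJ fell, HES2 and HES4 did not pass, and HES6, HEY2 and HEYL were too low to judge. Of the 7 members tested, 3 were higher, against 13.0% of all genes tested, and 2 lower, against 15.4%, with 28.4% called in all. Past 2-fold there was 1 member, HES7, where 1.58% of genes were higher. The median log2 fold change of the 7 was 0.46, beside -0.0097 over all genes tested. The groups did not overlap for 5 members, against 42.6% of genes.

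HES1 had 23.5, 24.0 and 24.8 CPM with vehicle and 33.7, 33.5 and 32.7 CPM with DOX, a rise of 1.38-fold (log2 0.46, SE 0.079, adjusted p = 0.0012). NRARP rose by nearly the same factor, from 5.92, 6.01 and 6.05 CPM to 8.26, 8.51 and 7.99 CPM (1.37-fold; log2 0.46, SE 0.12, adjusted p = 0.015). Replicates of both genes lay close together and the groups were well apart. The NRARP call was lost without HSC3 vehicle replicate 1 (0.45, adjusted p = 0.058) or vehicle replicate 2 (0.45, adjusted p = 0.066), with the size of the change kept. Without HSC3 DOX replicate 1, the library that stood apart, HES1 and NRARP were both at 0.46 (adjusted p = 8.7e-05 and 0.0094).

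HES7 rose from 4, 13 and 12 counts to 100, 185 and 104 counts in HSC3 cells, or from 0.0347, 0.158 and 0.101 CPM to 0.674, 1.37 and 0.860 CPM (log2 3.33, SE 0.60, 95% interval 2.01 to 4.64, adjusted p = 0.0016). In estimated molecules this is 0.598, 3.11 and 1.62 with vehicle and 5.81, 20.7 and 9.22 with DOX, so the size of the rise rests on few molecules. Every DOX library was above every vehicle library, and without HSC3 DOX replicate 1 the change was 3.54 (adjusted p = 4.9e-05).

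HEY1 fell in HSC3 cells as it did in CAL27 cells, from 5.31, 5.16 and 5.65 CPM to 3.82, 3.78 and 2.84 CPM (1.55-fold; log2 -0.63, SE 0.17, adjusted p = 0.016). Its groups did not overlap. The call was lost without HSC3 vehicle replicate 1 (-0.64, adjusted p = 0.056), vehicle replicate 3 (-0.59, adjusted p = 0.070) or DOX replicate 3 (-0.51, adjusted p = 0.057), and was -0.70 without DOX replicate 1 (adjusted p = 0.0036). RBPJ fell from 260, 237 and 256 CPM to 221, 176 and 192 CPM (1.28-fold; log2 -0.36, SE 0.082, adjusted p = 0.0070), and by -0.45 without DOX replicate 1 (adjusted p = 2.0e-06). HES1 and NRARP rose in this line, and a link between their changes and that of RBPJ was not tested.

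HES2 had 7.52, 6.49 and 6.57 CPM with vehicle and 6.61, 9.16 and 8.02 CPM with DOX in HSC3 cells, with overlapping groups (log2 0.20, 95% interval -0.13 to 0.54, adjusted p = 0.38). Its 95% interval leaves out a fall of the size seen in CAL27 cells. HES4 had 1.65, 1.31 and 0.888 CPM with vehicle and 1.02, 3.03 and 2.71 CPM with DOX (log2 0.81, 95% interval -0.056 to 1.68, adjusted p = 0.16). The low DOX value of HES4 was that of replicate 1, with 8.83 estimated molecules against 45.7 and 29.1 in DOX replicates 2 and 3. Without replicate 1 HES4 was higher at 1.16 (adjusted p = 0.0017) and 6 members passed.

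For 3 members a response in HSC3 cells was not detectable at this depth. HEYL had 0 counts in all 6 libraries, where 3 counts correspond to 0.0202 to 0.0365 CPM. The vehicle libraries held 20, 24 and 8 counts of HEY2, and the DOX libraries 0, 10 and 8. HES6 was counted 6, 2 and 0 times without DOX and 0, 38 and 0 times after it, so that its only DOX signal came from 1 library. All 3 were dropped by the filter on low counts in this line and have no fold change there.

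The DOX response differed between the lines for 6 of the 7 members that could be tested in both, as tested by the line-by-DOX interaction (edgeR, all 12 libraries together). Among all genes 20.6% passed this test. HES1, HES2, HES4, HES7 and NRARP had a higher response in HSC3 cells and RBPJ a lower one, against 8.25% and 12.3% of all genes tested. The difference, HSC3 minus CAL27, was 1.68 for NRARP (log2, SE 0.13, adjusted p = 3.9e-07), 1.93 for HES2 (SE 0.17, adjusted p = 2.0e-06), 0.77 for HES1 (SE 0.10, adjusted p = 7.6e-05) and -0.45 for RBPJ (SE 0.10, adjusted p = 0.0052). These 4 kept their call under all 18 alternatives run. HES4 (1.41, SE 0.42, adjusted p = 0.027) and HES7 (2.35, SE 0.71, adjusted p = 0.028) were less firm. HES4 lost its call in 8 of 17 alternatives, 7 of them leaving out a library: CAL27 vehicle replicate 1 (1.35, adjusted p = 0.063), the CAL27 DOX libraries numbered 4 (1.43, adjusted p = 0.055) and 6 (1.37, adjusted p = 0.068), HSC3 vehicle replicates 2 (1.42, adjusted p = 0.058) and 3 (1.21, adjusted p = 0.073), and HSC3 DOX replicates 2 (1.13, adjusted p = 0.064) and 3 (1.28, adjusted p = 0.065). HES7 lost its call in 7, each leaving out a library: CAL27 vehicle replicates 1 (2.09, adjusted p = 0.083) and 3 (2.28, adjusted p = 0.065), CAL27 DOX 4 (2.34, adjusted p = 0.063) and 5 (2.24, adjusted p = 0.075), HSC3 vehicle replicates 1 (1.94, adjusted p = 0.058) and 3 (2.41, adjusted p = 0.050), and HSC3 DOX replicate 2 (2.01, adjusted p = 0.065). HEY1 did not pass (0.14, 95% interval -0.33 to 0.61, adjusted p = 0.75), which does not show that the lines respond alike.

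HES1 and NRARP were called in opposite directions, lower in CAL27 and higher in HSC3 cells, as were 1.19% of the 17164 genes tested in both lines. HEY1 was lower in both, as were 8.62% of these genes. HES7 was higher in both. With DOX, HES1 ended at 24.9 ± 2.62 CPM in CAL27 and 33.3 ± 0.503 CPM in HSC3 cells (SD, n = 3). The order of its means between the lines was thus turned on the TMM scaling. The DOX groups were not tested against each other. NRARP stayed far higher in CAL27 cells, at 37.0 ± 4.98 CPM with DOX against 8.25 ± 0.263 CPM in HSC3 cells.

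**Figure D3:**
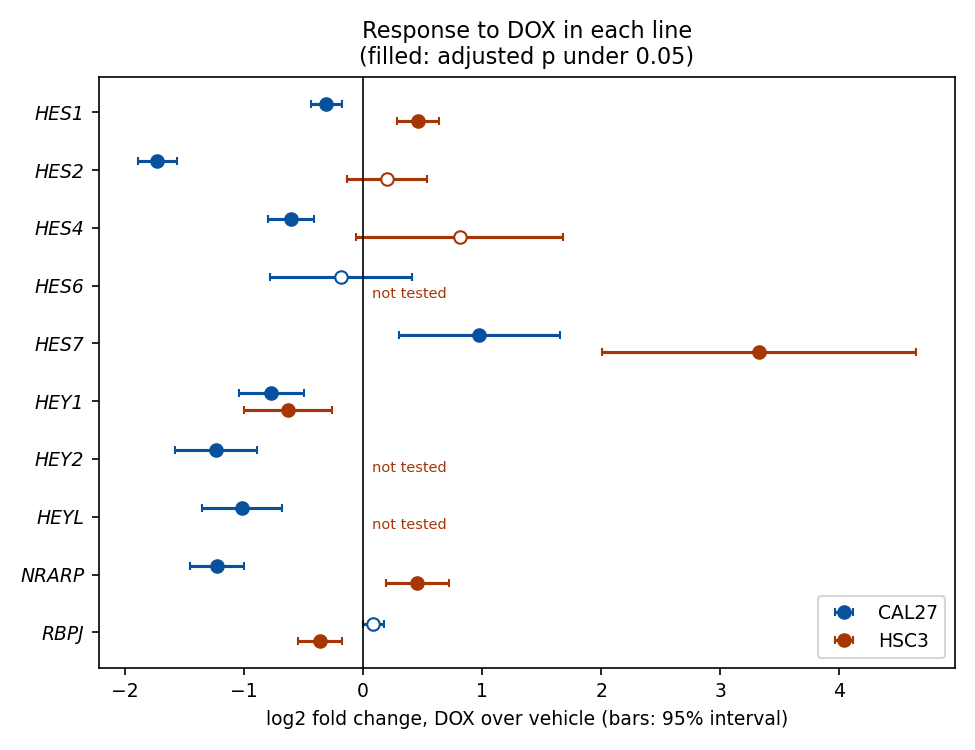
Log2 fold change with DOX of each member in CAL27 and HSC3 cells, from the edgeR fit of each line (points, filled where the adjusted p is under 0.05; bars are 95% intervals), with HES6, HEY2 and HEYL marked as not tested for HSC3 cells, where the filter on low counts dropped them. NRARP lies at -1.22 in CAL27 and 0.46 in HSC3 cells and HES1 at -0.31 and 0.46, whereas HEY1 lies under 0 in both at -0.77 and -0.63.

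The rest of the pathway was followed in a list of 67 genes by role, none of them a member. In CAL27 cells 26 of the 63 tested were lower and 15 higher (median log2 -0.081), against 21.8% and 22.6% of all genes tested. In HSC3 cells 14 of 62 were lower and 13 higher (median 0.029), against 15.4% and 13.0% of all genes. The counts by role given next rest on few genes each and are to be read against these shares. Among the ligands, 4 of 5 were lower and 1 higher in CAL27 cells, and 3 of 5 were lower in HSC3 cells. JAG1, a ligand of squamous cells, went from 329 ± 9.37 to 173 ± 4.83 CPM in CAL27 cells (SD, n = 3; log2 -0.93, adjusted p = 1.5e-13) and from 345 ± 3.78 to 184 ± 2.88 CPM in HSC3 cells (log2 -0.91, adjusted p = 8.8e-07). DLL1 fell by 0.94 and 1.38 on the log2 scale (adjusted p = 1.5e-09 and 6.7e-05) and JAG2 by 0.18 and 0.82 (adjusted p = 0.00091 and 0.00036). The ligands of the highest level fell in both lines, and a link between this and the changes of the members was not tested. DLL3 (-1.55, adjusted p = 0.049) and DLL4 (1.52, adjusted p = 0.040) passed in CAL27 cells and are among the counts above, but no CAL27 library exceeded 0.240 CPM of either or held 10 estimated molecules. Each lost its call without any of several single libraries, such as CAL27 vehicle replicate 1 (-1.43, adjusted p = 0.15, and 1.01, adjusted p = 0.19). In HSC3 cells neither DLL3 (-0.27, adjusted p = 0.90) nor DLL4 (0.74, adjusted p = 0.34) passed.

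Of the receptors, NOTCH1 and NOTCH3 were lower and NOTCH2 higher in CAL27 cells, and in HSC3 cells NOTCH2 alone passed, as higher. NOTCH1 went from 202 ± 6.98 to 98.2 ± 0.191 CPM in CAL27 cells (SD, n = 3; log2 -1.04, adjusted p = 2.3e-14) and stood at 16.6 ± 1.66 and 18.0 ± 2.91 CPM in HSC3 cells (log2 0.11, adjusted p = 0.61), and the lines differed in response (1.16, adjusted p = 2.2e-05). NOTCH3 went from 184 ± 9.23 to 73.1 ± 4.66 CPM in CAL27 cells (log2 -1.34, adjusted p = 1.6e-14). It was low in HSC3 cells, at 1.20 ± 0.324 and 0.646 ± 0.244 CPM, and did not pass there (log2 -0.90, adjusted p = 0.12). A difference between the lines in the NOTCH3 response did not pass (0.43, 95% interval -0.15 to 1.02, adjusted p = 0.31). NOTCH2 was higher by only 0.13 in CAL27 (adjusted p = 0.0082) and 0.21 in HSC3 cells (adjusted p = 0.025). It lost that call without CAL27 vehicle replicate 1 (0.12, adjusted p = 0.051) or 2 (0.10, adjusted p = 0.11), and in HSC3 cells without any 1 library but DOX replicate 1 (adjusted p = 0.059 to 0.14). NOTCH4 was not tested in either line, at no more than 0.13 CPM on average.

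Of 5 other HES-related repressors 2 were tested, and both were lower in CAL27 and higher in HSC3 cells, as HES1 was. BHLHE40, a clock and hypoxia repressor, went from 29.1 ± 0.0623 to 23.4 ± 1.70 CPM in CAL27 cells (SD, n = 3; log2 -0.32, adjusted p = 6.7e-05) and from 37.6 ± 3.16 to 61.3 ± 3.57 CPM in HSC3 cells (log2 0.70, adjusted p = 0.00014). Its relative BHLHE41 fell by 0.35 in CAL27 cells (adjusted p = 0.00018) and rose by 0.44 in HSC3 cells (adjusted p = 0.011), the latter call being lost without HSC3 vehicle replicate 1 (0.44, adjusted p = 0.051) or 2 (0.38, adjusted p = 0.070). Both differed in response between the lines (1.02, adjusted p = 7.4e-06, and 0.79, adjusted p = 0.00079). HES3, HES5 and HELT were not tested in either line.

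Among genes of the Groucho (TLE) family, 4 of 5 were lower and TLE1 higher in CAL27 cells. Of the 4, TLE2 was low, at 0.380 CPM with vehicle and 0.0958 CPM with DOX on average. In HSC3 cells TLE1 was again higher (0.36 in CAL27 and 0.50 in HSC3 cells, adjusted p = 5.9e-07 and 0.0013) and TLE5 lower (-0.47 in both, adjusted p = 1.9e-07 and 0.0048). TLE4 fell in CAL27 cells, at -0.56 (adjusted p = 1.8e-08), and stood at 0.34 in HSC3 cells (adjusted p = 0.19), a difference that passed its own test (0.91, adjusted p = 0.0031). Of 8 corepressors of RBPJ, 3 were lower and 1 higher in CAL27 cells and 2 lower and 1 higher in HSC3 cells. CTBP1 (-0.60 and -0.76, adjusted p = 6.5e-09 and 7.9e-05) and FHL1, whose gene makes the RBPJ-binding protein KyoT2 (-0.44 and -1.57, adjusted p = 0.0030 and 1.2e-07), fell in both. Of 8 coactivators 2 were lower and 2 higher in CAL27 cells, and 2 lower and 1 higher in HSC3 cells. SNW1, which helps NOTCH displace corepressors, rose in both (0.20 and 0.36, adjusted p = 0.0011 and 0.0018).

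Of 5 glycosyltransferases that modify the receptors, 1 was lower and 1 higher in CAL27 cells and 2 lower in HSC3 cells. LFNG, which extends sugars that tune ligand choice, was lower in HSC3 cells (-1.44, adjusted p = 0.00092) with -0.15 in CAL27 cells (adjusted p = 0.053), and the responses differed (-1.29, adjusted p = 0.0020). Of 8 proteases, 3 were lower in CAL27 cells, and 1 lower and 1 higher in HSC3 cells. Of 12 genes of endocytosis and ubiquitin transfer, 4 were lower and 2 higher in CAL27 cells, and 2 lower and 1 higher among the 11 tested in HSC3 cells. NEURL1B, a ligase for ligands, fell in both (-0.94 and -1.36, adjusted p = 1.3e-10 and 4.2e-05), and FBXW7, which degrades the intracellular domain, rose in both (0.30 and 0.39, adjusted p = 9.5e-05 and 0.0080). Of 7 other genes described as NOTCH targets, 6 were higher and 1 lower in CAL27 cells, and 5 were higher and 1 lower in HSC3 cells. CCND1, a cyclin of the G1 phase, rose (1.39 and 0.55, adjusted p = 9.0e-14 and 4.0e-05), and ID1, which blocks basic helix-loop-helix factors, fell (-1.02 and -0.83, adjusted p = 3.9e-06 and 0.0017). These targets thus did not move as NRARP and HES1 did in CAL27 cells, apart from ID1.

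**Figure D4:**
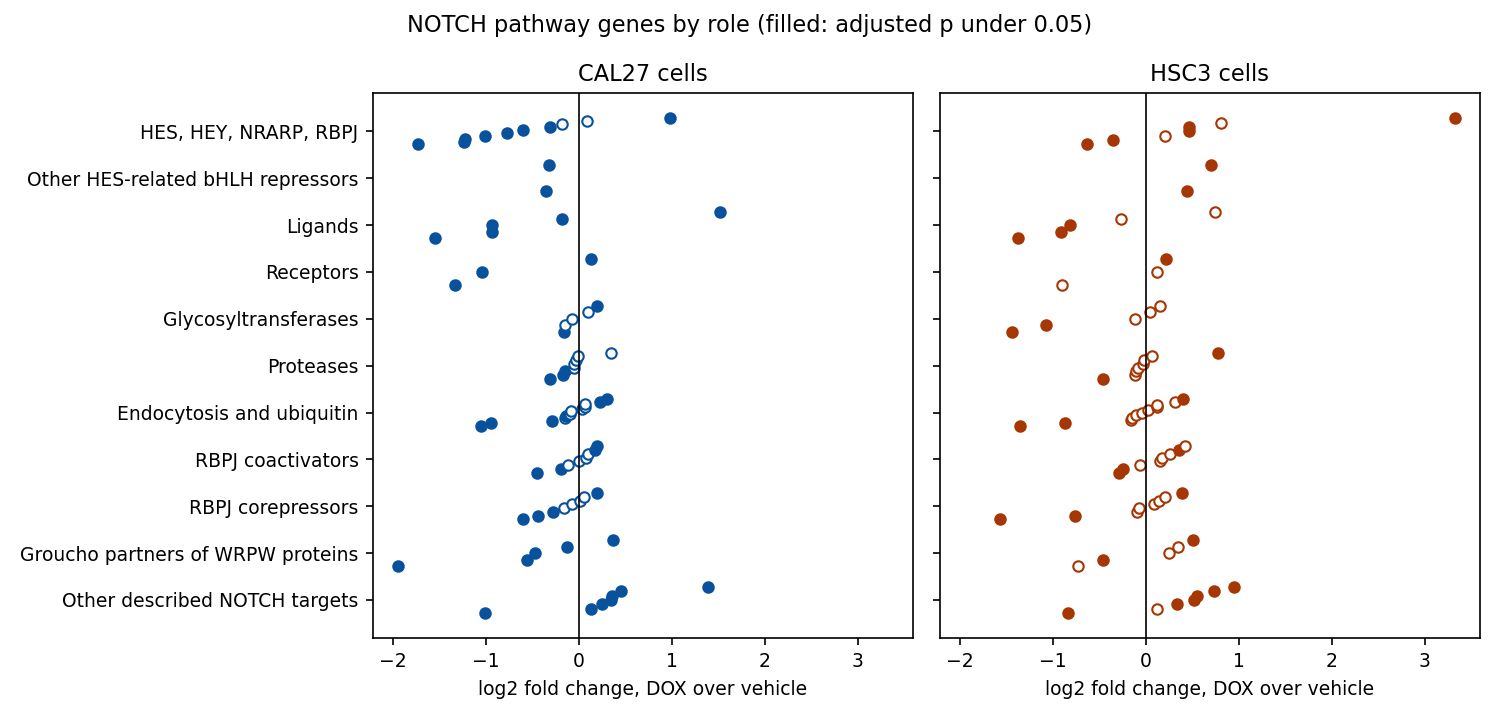
Log2 fold change with DOX of each tested gene (points, filled where the adjusted p is under 0.05) in CAL27 (left) and HSC3 cells (right), with the members on top and the pathway list by role beneath; height within a role only separates the points. The ligands show 4 lower and 1 higher of 5 in CAL27 cells and 3 lower of 5 in HSC3 cells, and the other described targets show 6 and 5 higher of 7.

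Genes next to members were looked at because reads from neighbours can be shared where strand is not used in counting, and the strand setting is not given in the sources used here. No exon of a member overlapped an exon of another annotated gene, apart from 2.76% of the exon bases of NRARP, under a long noncoding RNA. HES6, HEY2 and HEYL each overlapped the span of a long noncoding RNA on the other strand, outside its exons. ISG15, an interferon-induced gene, lies 966 bases from HES4 on the other strand. It fell with HES4 in CAL27 cells (-1.39, adjusted p = 3.1e-12) and stood at 0.08 in HSC3 cells (adjusted p = 0.83). ESPN lies 106 bases from HES2 on the other strand and was lower in CAL27 cells with DOX (-0.68, adjusted p = 4.8e-08). ALOXE3 lies 1545 bases from HES7 and rose by 0.76 in CAL27 cells (adjusted p = 2.1e-06) but fell by 0.42 on the log2 scale in HSC3 cells (adjusted p = 0.013), where HES7 rose. PER2, a clock gene that lies 3382 bases from HES6, rose by 0.61 in CAL27 cells (adjusted p = 7.6e-08). EXD3 near NRARP and LINC01607 near HEY1 passed in neither line. Any sharing of reads with these neighbours was not tested. Pseudogenes of RBPJ that were counted under their own symbols had at most 18 counts in any library.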

How the data were processed

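Poly(A) RNA from each culture was sequenced as a stranded library. The submitters' processing notes name FastQC 0.11.9, STAR 2.7.9a, Subread 2.0.1, featureCounts and GRCh38. What the authors deposited are raw counts, in whole numbers per gene symbol and not normalized, in a table per line. The strand setting and the treatment of duplicated and multiply mapped reads are not given in the sources used here. In the CAL27 table the DOX columns carry the numbers 4 to 6, which no sample of that group has, and they were assigned to the group without a replicate number.

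Counts were analysed in R 4.3.3 with edgeR 4.0.16 (TMM, filterByExpr at min.count 10 and min.total.count 15, robust glmQLFit, two-sided glmQLFTest), fitted per line for DOX and over all 12 libraries for the vehicle comparison and the interaction. Adjusted p-values are Benjamini-Hochberg over all genes tested, called under 0.05. CPM use TMM over all 12 libraries. The counts that 1 molecule gives were estimated from the share of zeros among genes expected at 8 to 16 counts. A member was too low to judge where the filter dropped it or fewer than 10 molecules were estimated in each of a line's 6 libraries. Intervals cover 95% and floors cover counting error only. Named genes are the members, MUC1, genes within 5 kb of a member, pathway ligands and receptors, up to 3 pathway genes of each role and line with the largest change past the threshold, and the genes of most similar pattern. The members and lists were chosen with earlier results of these data known. The fits were tested on simulated data in which 200 genes had a log2 change of 1.5: 100% were recovered in CAL27 and in HSC3 cells and 99.5% in the interaction, with 10 of 210, 8 of 208 and 8 of 207 calls unchanged genes. The changed genes were drawn only from those above a set mean count. The same spread was used for every gene and library, without counts per molecule. Recovery of genes with few counts or smaller changes, and at the spread of the HSC3 libraries, was therefore not tested. Alternatives covered DESeq2 1.42.0, its size factors, library totals, filters, thresholds, counts per molecule, 1 fit over all libraries, vehicle libraries alone, the replicate block and each library left out.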

Additional observations from a re-analysis of the deposited data

Results flagged for a closer look

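The change with DOX differed between the 2 lines for 6 members, by the interaction of line and DOX in edgeR's quasi-likelihood test (HSC3 minus CAL27, log2). It was 1.93 for HES2, 1.68 for NRARP, 0.77 for HES1, 1.41 for HES4, 2.35 for HES7 and -0.45 for RBPJ. HES1 and NRARP turned direction, falling in CAL27 and rising in HSC3 cells. HES2 and HES4 fell in CAL27 cells and did not pass in HSC3 cells. HES7 rose in both lines, by more in HSC3 cells, where it rests on few molecules, and RBPJ fell in HSC3 cells and did not pass in CAL27 cells. The HES4 and HES7 differences are the ones that single libraries decide.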

How the results depend on the processing

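With a 2-fold threshold beside the adjusted p, 4 members and 8 pathway genes were called in CAL27 cells and 1 member and 5 pathway genes in HSC3 cells, since fewer genes pass a stricter rule. At an adjusted p under 0.01, 3 members were called in HSC3 cells. In 1 fit over all 12 libraries, 5 members and 25 pathway genes were called in CAL27 cells, and the cause was not tested. Where only genes whose log2 CPM averaged 3 or more were kept, the calls were 3 of the 4 members tested in CAL27 cells, both of the 2 tested in HSC3 cells, and all 4 tested between the vehicle groups, fewer because fewer were tested. Leaving out 1 library gave 7 to 8 members in CAL27 cells, 3 to 6 in HSC3 cells (3 without HSC3 vehicle replicate 1, 6 without DOX replicate 1), 4 to 6 that differed in response and 9 to 10 that differed between vehicle groups, with 32 to 41 and 22 to 34 pathway genes in CAL27 and HSC3 cells. Of 524 recomputed values for single members, 493 kept their direction and side of the threshold, 28 lost the call, 2 gained it and 1 turned direction: HES6 in CAL27 cells without the DOX library numbered 5, at 0.0055 (adjusted p = 0.99), where leaving out other libraries gave down to -0.51. Dividing counts by counts per molecule also brought HES4 past the threshold in HSC3 cells (0.90, adjusted p = 0.050). Among 1187 such values for MUC1 and the named pathway genes, 71 lost a call, 5 gained one and 1, which was not called, turned direction: DLL3 in HSC3 cells without DOX replicate 1 (0.32, adjusted p = 0.75), with -1.13 without DOX replicate 3. With the replicate number as a block in HSC3 cells, 5 members and 24 pathway genes were called. Same-numbered HSC3 vehicle and DOX libraries deviated from their group means with correlations of -0.20, 0.35 and -0.34 across genes. So few libraries cannot decide whether the cultures were paired, and the labels give only the shared number. No replicate block could be made in CAL27 cells, whose DOX libraries carry no numbers of the labels. Depth in molecules limits HES6, HES7, HEY2 and HEYL in HSC3 cells, as well as HES4 in DOX replicate 1 and MUC1 with DOX there.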

Other observations

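For the 4 members whose log2 CPM averaged 3 or more, the genes of most similar pattern were found by Pearson's r of log2 CPM over the 12 libraries, after the mean of each line was subtracted, among 9234 genes. These libraries form 4 groups, so r mostly reflects the pair of DOX responses and is given as a description. For NRARP they were CXCL1 (r = 0.994), CALCOCO1 (0.993) and DENND5A (0.987). CXCL1, a neutrophil chemokine, had log2 fold changes of -1.74 in CAL27 and 0.60 in HSC3 cells. For HES1 they were CARD16 (r = 0.989), EHF (0.978) and SAT1 (0.975), where EHF, an epithelial ETS factor, had -0.38 and 0.69. For HES2 they were KLHL36 (r = 0.987), PARP12 (0.984) and LAP3 (0.984), and for RBPJ they were NEMP1 (r = 0.978), GUF1 (0.975) and ECT2 (0.972). PARP12, an interferon-inducible gene, had -0.74 in CAL27 and 0.03 in HSC3 cells.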
